A study of Mus musculus with 9 samples.

Results

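Tcf7l2, Shox2, Pou4f1 and Rorb are 4 transcription factors known from neurons of the thalamus and habenula, here 4 of the 14779 genes measured by RNA sequencing in mouse hippocampus. They were picked from a list of such factors because their levels in the libraries of ethanol-exposed mice given an antibody against interleukin 17 stood above those of the other libraries. The values of that group against the other 2 are therefore given as a description, without a test. For Tcf7l2 and Rorb, the levels in ethanol-exposed mice against air controls, both given control IgG, were tested. Shox2 and Pou4f1 had too few counts in those libraries for a test.

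The study sequenced polyadenylated RNA of mouse hippocampus in 3 groups, with 3 libraries per group. The design text gives 3 mice per group. The CIE+IL17 Ab mice had chronic intermittent ethanol (CIE) and an antibody against interleukin 17A, an immune cytokine. The CIE+IgG mice had the same ethanol exposure and an immunoglobulin that served as the control antibody. The Air+IgG mice were kept in air without ethanol and had the control immunoglobulin. The labels used here give neither strain nor age, nor the way the tissue was dissected. The comparisons ask what ethanol exposure changes in hippocampal transcripts, and what the antibody changes in exposed mice.

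Tcf7l2 is a DNA-binding partner of beta-catenin in the Wnt pathway, and in the adult mouse brain it marks thalamic neurons and much of the habenula, which lies beside the thalamus. Shox2 is a homeodomain factor of thalamic neurons, and Pou4f1 (also called Brn3a) is a POU-homeodomain factor that specifies habenular neurons. Rorb is an orphan nuclear receptor that binds the response elements of the ROR family, and it is found in thalamic nuclei, in cortex and in other brain regions. The thalamus and habenula lie under the hippocampus.

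The promoters of the 4 genes are shown because Tcf7l2 and Rorb belong to families with known short binding cores. That the 4 genes varied together over the libraries follows in part from how they were picked. Each line gives the 250 bases before the first transcription start in RefSeq (build GRCm38.p6), 5′ to 3′ on the strand of the gene. Capitals mark a match to the TCF/LEF core CTTTGA on either strand.
Tcf7l2: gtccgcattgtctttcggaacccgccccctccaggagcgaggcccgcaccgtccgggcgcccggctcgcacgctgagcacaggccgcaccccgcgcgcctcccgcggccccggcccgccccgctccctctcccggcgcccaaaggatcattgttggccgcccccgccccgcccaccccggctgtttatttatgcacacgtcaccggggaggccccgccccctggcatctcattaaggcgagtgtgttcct
Shox2: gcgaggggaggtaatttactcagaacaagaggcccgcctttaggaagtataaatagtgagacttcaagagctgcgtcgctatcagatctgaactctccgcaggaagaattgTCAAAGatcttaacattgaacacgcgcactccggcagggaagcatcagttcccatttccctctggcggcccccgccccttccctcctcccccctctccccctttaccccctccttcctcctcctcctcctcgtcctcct
Pou4f1: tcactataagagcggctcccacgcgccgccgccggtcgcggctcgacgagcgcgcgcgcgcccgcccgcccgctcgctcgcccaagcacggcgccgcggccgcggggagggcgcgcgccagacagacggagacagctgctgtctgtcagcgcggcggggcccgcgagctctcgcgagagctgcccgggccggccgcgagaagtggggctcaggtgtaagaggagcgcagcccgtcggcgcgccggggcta
Rorb: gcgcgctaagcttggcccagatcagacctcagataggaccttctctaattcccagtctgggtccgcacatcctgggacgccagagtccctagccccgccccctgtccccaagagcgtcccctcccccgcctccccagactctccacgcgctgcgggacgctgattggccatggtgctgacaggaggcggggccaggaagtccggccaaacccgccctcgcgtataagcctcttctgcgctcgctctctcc
These windows are chr19:55741560-55741809 (plus strand) for Tcf7l2, chr3:66981772-66982021 (minus strand) for Shox2, chr14:104468000-104468249 (minus strand) for Pou4f1 and chr19:19111197-19111446 (minus strand) for Rorb. The TCF/LEF core was found in the Shox2 window alone, on the strand opposite to the gene, where the printed strand reads TCAAAG from 139 bases before the start. Of 32851 RefSeq mouse promoters of the same length, 13.8% held this core. The half-site of ROR receptors, AGGTCA, is in 14.0% of promoters, and the homeodomain core TAATTA in 4.84%, and neither is in any of the 4 windows on either strand. The second RefSeq starts of Tcf7l2 and Rorb, searched in the same way, held none of the 3 cores. The 4 windows differ in base composition, with a GC content of 72.8% for Tcf7l2, 55.6% for Shox2, 78.0% for Pou4f1 and 66.0% for Rorb, beside a median of 52.4% over all promoters.

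The libraries held 7372658 to 11894628 expected counts. Several libraries stood apart from others of their own group. The summed level of 16 transcription factors of hippocampal and other telencephalic neurons was 676, 956 and 1812 CPM (counts scaled to a common library size and adjusted for library composition) in CIE+IL17 Ab 1 to 3. It was 2702, 2893 and 1894 CPM in CIE+IgG 1 to 3 and 2546, 3675 and 2327 CPM in Air+IgG 1 to 3. Neurod6, a factor of hippocampal pyramidal neurons, had 8, 20 and 445 counts in CIE+IL17 Ab 1 to 3, against 1582, 1283 and 961 in CIE+IgG 1 to 3 and 1370, 1379 and 1495 in Air+IgG 1 to 3. The libraries CIE+IL17 Ab 1 and 2, both labelled hippocampus, thus held very little of this pyramidal neuron marker. Their summed CA1 genes were 146 and 166 CPM, against 463 to 669 in CIE+IgG and 638 to 730 in Air+IgG. Other hippocampal lists were less low. Summed dentate genes were 256 and 573 CPM, against 500 to 928 in CIE+IgG and 665 to 1357 in Air+IgG. Summed CA2 and CA3 genes were 413 and 632 CPM, against 469 to 638 in CIE+IgG and 469 to 554 in Air+IgG. Summed striatal genes reached 841 CPM in CIE+IL17 Ab 3 and 1335 CPM in CIE+IgG 3 but 239 to 275 CPM in the other 7 libraries. Lars2 was very abundant in CIE+IL17 Ab 1, with 495056 counts, and in Air+IgG 2, with 593544 counts. Where leaving out these libraries moves a count or a fold change by much, the value without them stands beside it. Without CIE+IgG 1, edgeR called no gene of the table in CIE+IL17 Ab over CIE+IgG, and without Air+IgG 3 it called none in CIE+IL17 Ab over Air+IgG, so every edgeR call below is lost in that case.

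Tcf7l2 was abundant in CIE+IL17 Ab and near the low end of measured genes elsewhere. The gene (ENSMUSG00000024985) is at chr19:55741820-55933654 on the plus strand of GRCm38. It had 1269, 2957 and 1191 expected counts in CIE+IL17 Ab 1 to 3, which is 176, 231 and 126 CPM. It had 5.58, 6.55 and 27.0 CPM in CIE+IgG 1 to 3, and 6.39, 6.86 and 5.30 CPM in Air+IgG 1 to 3. The 3 CIE+IL17 Ab libraries lay above the other 6 without overlap, and among those 6 the library CIE+IgG 3 lay above the rest. Over all genes tested, 9.19% had all 3 CIE+IL17 Ab libraries above the other 6, and the 4 genes were picked for being so. The group means were 178 ± 52.9 CPM in CIE+IL17 Ab, 13.1 ± 12.1 in CIE+IgG and 6.18 ± 0.80 in Air+IgG (SD, n = 3 each).

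The log2 fold change of Tcf7l2 in CIE+IL17 Ab was 3.74 (SE 0.56) over CIE+IgG and 4.85 (SE 0.60) over Air+IgG, and both comparisons use the same CIE+IL17 Ab libraries. Without CIE+IgG 3, the log2 fold change over CIE+IgG was 4.87. Without CIE+IL17 Ab 1 and 2 it was 3.24 over CIE+IgG and 4.35 over Air+IgG, and it then rests on 1 CIE+IL17 Ab library. In bulk tissue such as this, a larger number of cells that express a gene and more RNA per cell cannot be told apart. Per kilobase of exon, Tcf7l2 stood above 85.2%, 90.5% and 77.6% of genes in CIE+IL17 Ab 1 to 3. It stood above 9.06%, 11.5% and 31.3% of genes in CIE+IgG 1 to 3, and above 10.6%, 12.5% and 8.55% in Air+IgG 1 to 3.

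Ethanol exposure alone was the comparison in which Tcf7l2 and Rorb could be tested. Shox2 and Pou4f1 passed the count filter only through the CIE+IL17 Ab libraries, so they are given no test. Tcf7l2 had a log2 fold change of 1.11 (SE 0.59) in CIE+IgG over Air+IgG, with an adjusted p of 0.9997 in edgeR's quasi-likelihood test. That value comes from the library CIE+IgG 3, and without it the log2 fold change was -0.02. No gene of the table was called in this comparison at an adjusted p under 0.05 (0%), while 406 genes had an unadjusted p under 0.05. DESeq2 called 6 genes of the table in this comparison and limma-voom 0.

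**Figure D1:**
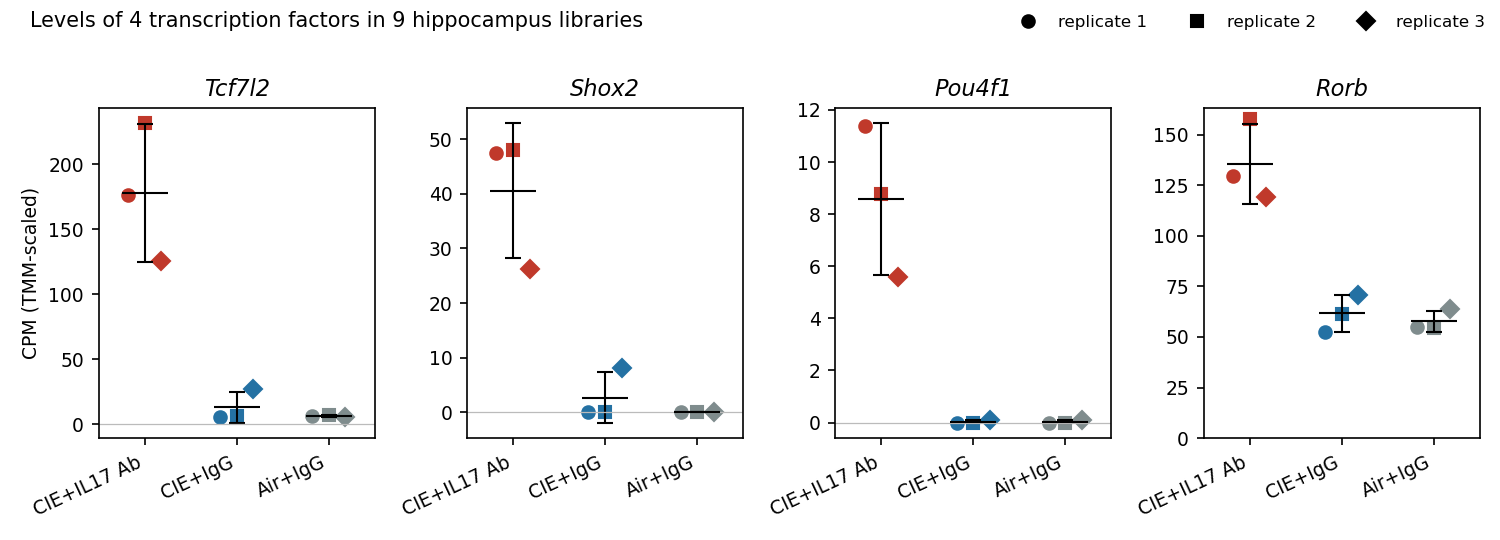
Levels of Tcf7l2, Shox2, Pou4f1 and Rorb in CPM (vertical axes, linear, 1 panel per gene) in the 3 libraries of CIE+IL17 Ab, CIE+IgG and Air+IgG, with a point per library and the group mean and SD as bars. All 3 CIE+IL17 Ab libraries lie above the other 6 for each gene, and CIE+IgG 3 is the highest of the other 6 for Tcf7l2, Shox2 and Rorb.

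Shox2 was detected in all 3 CIE+IL17 Ab libraries and in 1 of the other 6. The gene (ENSMUSG00000027833) is at chr3:66971727-66981771 on the minus strand. It had 341, 613 and 249 counts in CIE+IL17 Ab 1 to 3, which is 47.4, 48.0 and 26.3 CPM. CIE+IgG 1 and 2 had 0 counts and CIE+IgG 3 had 87.1 counts, which is 8.11 CPM. The 3 Air+IgG libraries had 0 counts. The level in CIE+IL17 Ab was 13.4-fold that in CIE+IgG (95% exact interval 10.8 to 16.9). It was at least 371-fold that in Air+IgG, with a floor of 3 counts over the Air+IgG group.

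The single library CIE+IgG 3 decides the size of the Shox2 difference. Without CIE+IgG 3 the level in CIE+IL17 Ab was at least 242-fold higher than in CIE+IgG. Without CIE+IgG 1 the ratio was 9.05, and without CIE+IL17 Ab 1 and 2 it was 8.63. The bound over Air+IgG was 244-fold without Air+IgG 1, 226-fold without Air+IgG 3 and 238-fold without CIE+IL17 Ab 1 and 2. In CIE+IgG over Air+IgG the level was at least 27.6-fold higher, all from CIE+IgG 3. No test is given there, because Shox2 passed the count filter only through the CIE+IL17 Ab libraries. Intervals and floors cover counting error only.

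The start of Shox2 lies within Rsrc1, a gene for a splicing-related protein on the opposite strand, and the exons of both share 153 bases, 4.62% of the Shox2 exon length. The libraries are stranded per the labels, but whether strand was used in counting is not given in the sources used here. Rsrc1 had 82.4 ± 18.3 CPM in CIE+IL17 Ab, 45.8 ± 1.17 in CIE+IgG and 49.2 ± 3.67 in Air+IgG (SD, n = 3 each). Its log2 fold change was 0.85 (SE 0.15) over CIE+IgG, with an adjusted p of 0.0302 in edgeR's quasi-likelihood test. That call was lost without Air+IgG 1, Air+IgG 3, CIE+IgG 1, CIE+IgG 2 or CIE+IL17 Ab 2. In CIE+IgG 3, where Shox2 had 87.1 counts, Rsrc1 had 44.5 CPM, against 46.2 and 46.7 CPM in CIE+IgG 1 and 2. Of the 8 other genes of the table that lie next to the 4 factors, none was called in CIE+IL17 Ab over CIE+IgG. Over all genes tested, 3.18% were called there. Closest to the threshold was Nrap, next to Tcf7l2, with a log2 fold change of 1.40 (adjusted p 0.0686, edgeR). It had 1.93 CPM in CIE+IL17 Ab, 0.717 in CIE+IgG and 0.882 in Air+IgG. All 3 CIE+IL17 Ab libraries lay above the other 6 for Nrap, as for 9.19% of all genes. Rsrc1 and these neighbours were chosen by position, outside the rule for named genes.

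Pou4f1 was the least abundant of the 4 and the closest to absent outside CIE+IL17 Ab. The gene (ENSMUSG00000048349) is at chr14:104461676-104467999 on the minus strand. It had 82.4, 112 and 53.0 counts in CIE+IL17 Ab 1 to 3, which is 11.4, 8.77 and 5.59 CPM. Of the other 6 libraries, CIE+IgG 3 and Air+IgG 3 had 1 count each and 4 had 0 counts. The level in CIE+IL17 Ab was 240-fold that in CIE+IgG (95% exact interval 42.6 to 9506) and 228-fold that in Air+IgG (40.6 to 9054), and the width of these intervals shows how little 1 count fixes the ratio. Without CIE+IgG 3 it was at least 49.6-fold that in CIE+IgG, and without Air+IgG 3 at least 46.4-fold that in Air+IgG. Over Air+IgG the ratio was 151 without Air+IgG 1 and 152 without CIE+IL17 Ab 1 and 2. No ratio is given for CIE+IgG over Air+IgG, with 1 count in each group.

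Rorb was well expressed in all 9 libraries and differed least between groups. The gene (ENSMUSG00000036192) is at chr19:18930605-19111196 on the minus strand. It had 130, 158 and 119 CPM in CIE+IL17 Ab 1 to 3. It had 52.5, 61.5 and 70.9 CPM in CIE+IgG 1 to 3, and 55.1, 54.5 and 63.7 CPM in Air+IgG 1 to 3. The lowest CIE+IL17 Ab library thus lay above the highest of the other 6, CIE+IgG 3, and the IgG groups overlapped each other. The means were 136 ± 19.9 CPM in CIE+IL17 Ab, 61.6 ± 9.21 in CIE+IgG and 57.8 ± 5.17 in Air+IgG (SD, n = 3 each). The log2 fold change in CIE+IL17 Ab was 1.14 (SE 0.14) over CIE+IgG and 1.23 (SE 0.14) over Air+IgG. In CIE+IgG over Air+IgG it was 0.09 (SE 0.14), with an adjusted p of 0.9997 in edgeR's quasi-likelihood test. That difference turned to -0.02 without CIE+IgG 3.

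Per kilobase of exon, the order of the 4 genes changed between groups. In CIE+IL17 Ab 1 the levels were 20.1 CPM per kilobase for Tcf7l2, 14.3 for Shox2, 11.7 for Rorb and 2.44 for Pou4f1. In CIE+IL17 Ab 2 they were 26.4 for Tcf7l2, 14.5 for Shox2, 14.2 for Rorb and 1.88 for Pou4f1, so that Shox2 and Rorb were nearly level. In CIE+IL17 Ab 3, Rorb with 10.8 CPM per kilobase stood above Shox2 with 7.93. In all 6 other libraries Rorb led, with 4.74 to 6.40 CPM per kilobase in CIE+IgG and 4.92 to 5.75 in Air+IgG. Tcf7l2 followed there with 0.64 to 3.08 CPM per kilobase in CIE+IgG and 0.60 to 0.78 in Air+IgG.

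Relative to Tcf7l2, Shox2 in CIE+IgG 3 was at or above its level in CIE+IL17 Ab, and Pou4f1 in CIE+IgG 3 was below it. Per 100 Tcf7l2 counts there were 26.9 Shox2 counts in CIE+IL17 Ab 1 (95% exact interval 23.8 to 30.3), 20.7 in CIE+IL17 Ab 2 (19.0 to 22.6) and 20.9 in CIE+IL17 Ab 3 (18.2 to 24.0). CIE+IgG 3 had 30.0 Shox2 counts per 100 Tcf7l2 counts (23.3 to 38.2). That interval overlaps those of CIE+IL17 Ab 1 and 3 and lies above that of CIE+IL17 Ab 2. For Pou4f1 the values were 6.46 (5.10 to 8.08), 3.79 (3.11 to 4.57) and 4.45 (3.31 to 5.86) in CIE+IL17 Ab 1 to 3. CIE+IgG 3 had 0.345 Pou4f1 counts per 100 Tcf7l2 counts (0.0087 to 1.94), an interval that lies under those of the CIE+IL17 Ab libraries. In the remaining 5 libraries, with 51 to 59 Tcf7l2 counts, the Shox2 ratio is bounded from above only and the Pou4f1 ratio is not resolved. With 0 counts of Shox2 there, the exact intervals reach 6.45 to 7.50 per 100 Tcf7l2 counts, which is under the intervals of the 4 libraries with Shox2.

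**Figure D2:**
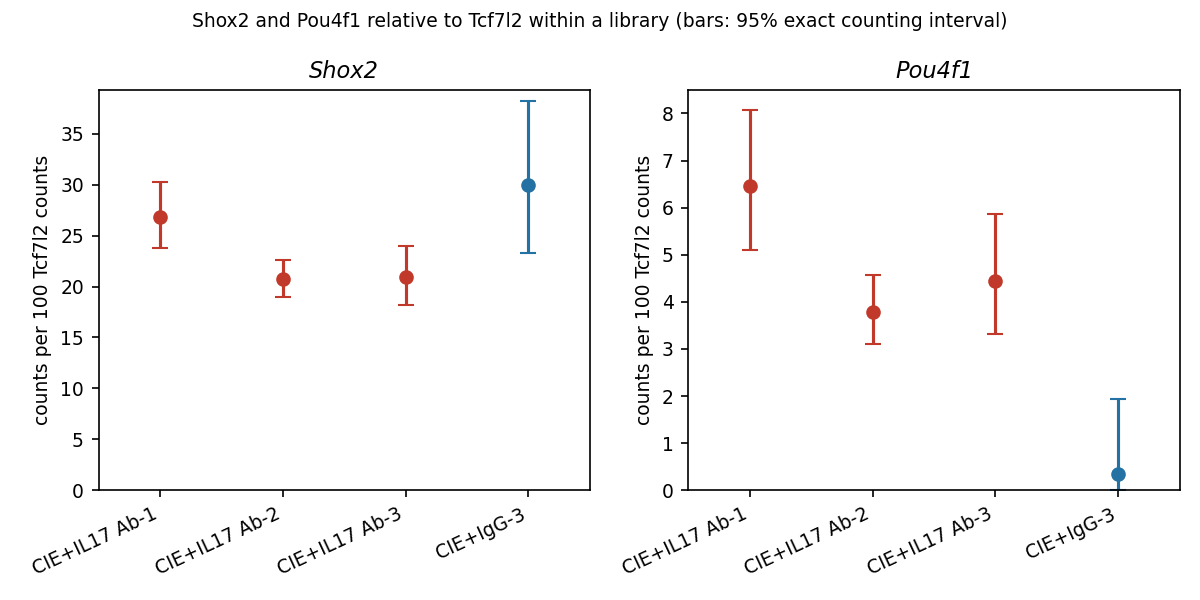
Counts of Shox2 and of Pou4f1 per 100 counts of Tcf7l2 (vertical axes, linear) in the 4 libraries with over 100 Tcf7l2 counts, CIE+IL17 Ab 1 to 3 and CIE+IgG 3, with 95% exact intervals of the counts as bars. Shox2 lies between 20.7 and 30.0 in all 4 libraries, and Pou4f1 lies between 3.79 and 6.46 in CIE+IL17 Ab and at 0.345 in CIE+IgG 3.

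The library CIE+IgG 3 also differed between lists of thalamic and habenular genes. The summed level of 11 thalamus genes that are no transcription factors was 454 CPM in CIE+IgG 3, 298 and 255 CPM in CIE+IgG 1 and 2, and 228 to 275 CPM in Air+IgG. The summed level of 11 habenula genes of that kind was 98.9 CPM in CIE+IgG 3, 83.2 and 101 CPM in CIE+IgG 1 and 2, and 76.2 to 104 CPM in Air+IgG. CIE+IgG 3 was thus the highest of the 6 IgG libraries for the thalamus list and within their range for the habenula sum. Nwd2, the largest part of that sum, had its lowest level there, 36.7 CPM. Chrnb3 was near the floor, with 0.093 CPM (1 count) there and 9.01 counts over the 3 CIE+IgG libraries, so its lowest library is not resolved. Chrnb3, Tac2, Gpr151 and Lrrc55 were not highest there. The remaining habenula genes of the list were higher in CIE+IgG 3 than in the other 5 IgG libraries, by little for Chrna3 and Gng8. Those given next were chosen after their values were seen. Chat, the enzyme of acetylcholine synthesis, had 5.31 CPM there, against 0.11 and 0.23 CPM in CIE+IgG 1 and 2 and up to 0.95 CPM in Air+IgG. The choline transporter Slc5a7 had 12.0 CPM there and up to 2.65 CPM in Air+IgG, the nicotinic subunit Chrnb4 had 4.10 and up to 0.40 CPM, and the tachykinin precursor Tac1 had 23.2 and up to 5.49 CPM. The same library held 1335 CPM of striatal genes, and the part of neighbouring tissue in these values was not tested.

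Of the close relatives of the 4 factors, Lef1 and Rora rose in CIE+IL17 Ab. Lef1, the TCF/LEF factor that is also known from thalamic neurons, had 63.2 ± 21.2 CPM in CIE+IL17 Ab, 11.8 ± 3.18 in CIE+IgG and 10.2 ± 2.55 in Air+IgG (SD, n = 3 each). Its log2 fold change was 2.42 (SE 0.29) over CIE+IgG and 2.64 (SE 0.30) over Air+IgG, with adjusted p of 0.0178 and 0.00985 in edgeR's quasi-likelihood test. The call over CIE+IgG was lost without CIE+IgG 1 or CIE+IgG 2. Tcf7, best known from T cells, had 3.34 CPM in CIE+IL17 Ab, 2.97 in CIE+IgG and 2.72 in Air+IgG. Tcf7l1, a repressor of Wnt targets in stem cells, had 2.03, 1.52 and 1.65 CPM in the same groups. Neither passed the test, with adjusted p of 0.489 or more in edgeR's test of both comparisons with CIE+IL17 Ab. Per kilobase, Tcf7l2 made up 75.1%, 68.7% and 63.4% of the summed TCF/LEF family in CIE+IL17 Ab 1 to 3. It made up 19.2%, 23.1% and 47.4% in CIE+IgG 1 to 3 and 19.7%, 23.5% and 20.6% in Air+IgG 1 to 3.

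Rora, the ROR family receptor of thalamic and cerebellar neurons, had 425 ± 146 CPM in CIE+IL17 Ab, 117 ± 19.1 in CIE+IgG and 110 ± 22.7 in Air+IgG (SD, n = 3 each). Its log2 fold change was 1.86 (SE 0.26) over CIE+IgG, with an adjusted p of 0.0220 in edgeR's quasi-likelihood test, and 1.95 (SE 0.26) over Air+IgG, with an adjusted p of 0.0105. The call over CIE+IgG was lost without Air+IgG 1, Air+IgG 3, CIE+IgG 1 or CIE+IgG 2. Per kilobase, Rorb made up 31.9%, 23.9% and 28.3% of the sum of Rorb and Rora in CIE+IL17 Ab 1 to 3. Its share was 37.997% to 38.99% in CIE+IgG and 35.0% to 43.5% in Air+IgG, so its share was lower in the libraries where its level was higher. Pou4f2 and Pou4f3, the relatives of Pou4f1, are not among the genes of the table, so they have no values here.

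Among 13 other transcription factors of thalamus, habenula and the neighbouring prethalamus and subthalamic region, 3 rose and 0 fell in CIE+IL17 Ab over CIE+IgG. Over all genes tested, 3.18% were called, 1.78% higher and 1.41% lower, in that comparison. At an unadjusted p under 0.05 in edgeR, 6 of the 13 were higher and 1 lower, beside 3281 of all 14696 genes in either direction. DESeq2, which called more genes of the table than edgeR here, called 4 higher and 1 lower, and limma-voom called 4 higher and 0 lower. Besides Lef1 and Rora, Lhx9, a LIM-homeodomain factor of developing thalamus, rose. It had 53.99 ± 21.1 CPM in CIE+IL17 Ab, 12.9 ± 3.25 in CIE+IgG and 13.0 ± 0.13 in Air+IgG (SD, n = 3 each), a log2 fold change of 2.06 (SE 0.30) over CIE+IgG with an adjusted p of 0.0242 in edgeR's quasi-likelihood test. The median log2 fold change of the 13 was 0.82, beside 0.01 over all genes. The count of 3 was 1 without Air+IgG 1 or Air+IgG 3, and 0 without CIE+IgG 1, without CIE+IgG 2, or without CIE+IL17 Ab 1 and 2 together.

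In CIE+IL17 Ab over Air+IgG, 6 of the 13 rose and 1 fell, beside 13.5% called over all genes, 6.83% higher and 6.71% lower. The 3 named above rose here too. Foxp2, a forkhead factor of thalamic and striatal neurons, had 87.7 ± 27.4 CPM in CIE+IL17 Ab, 15.8 ± 19.2 in CIE+IgG and 6.34 ± 2.72 in Air+IgG (SD, n = 3 each), with a log2 fold change of 3.76 over Air+IgG (adjusted p 0.0248, edgeR). Over CIE+IgG its log2 fold change of 2.45 missed the threshold (adjusted p 0.106, edgeR). Six3, a factor of developing forebrain including striatum, had 5.96 ± 0.25 CPM in CIE+IL17 Ab, 3.54 ± 3.47 in CIE+IgG and 0.73 ± 0.37 in Air+IgG (SD, n = 3 each), and a log2 fold change of 2.96 over Air+IgG (adjusted p 0.0388, edgeR). Nkx2-2, a factor of ventral neural tube and of oligodendrocyte precursors, had a log2 fold change of 1.12 over Air+IgG (adjusted p 0.0399, edgeR). The calls of Six3 and Nkx2-2 were each lost in 7 of the 9 fits that left out 1 library, and held for Six3 without CIE+IgG 2 or 3 and for Nkx2-2 without CIE+IgG 3 or CIE+IL17 Ab 3.

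Lhx2, a LIM-homeodomain factor of both developing thalamus and developing hippocampus, was the 1 that fell. It had 17.0 ± 7.36 CPM in CIE+IL17 Ab, 33.3 ± 6.55 in CIE+IgG and 40.5 ± 2.81 in Air+IgG (SD, n = 3 each), and its log2 fold change over Air+IgG was -1.24 (adjusted p 0.0269, edgeR). The 3 most abundant factors that were not called were at differing levels. Prox1, which is also a marker of dentate granule cells, had 126 ± 65.1 CPM in CIE+IL17 Ab, 156 ± 39.9 in CIE+IgG and 174 ± 79.1 in Air+IgG (SD, n = 3 each). Zic1, a zinc finger factor, had 251 ± 154 CPM in CIE+IL17 Ab, 112 ± 93.5 in CIE+IgG and 39.4 ± 10.9 in Air+IgG. Its libraries overlapped, with 75.3 to 363 CPM in CIE+IL17 Ab and 19.9 to 207 in CIE+IgG. Nr4a2, an orphan nuclear receptor, had 16.6 ± 9.58 CPM in CIE+IL17 Ab, 32.1 ± 20.9 in CIE+IgG and 48.2 ± 12.8 in Air+IgG. The count of 7 called over Air+IgG was 3 without Air+IgG 1, without Air+IgG 2 or without CIE+IL17 Ab 2, and 0 without Air+IgG 3 or without CIE+IL17 Ab 1 and 2 together.

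**Figure D3:**
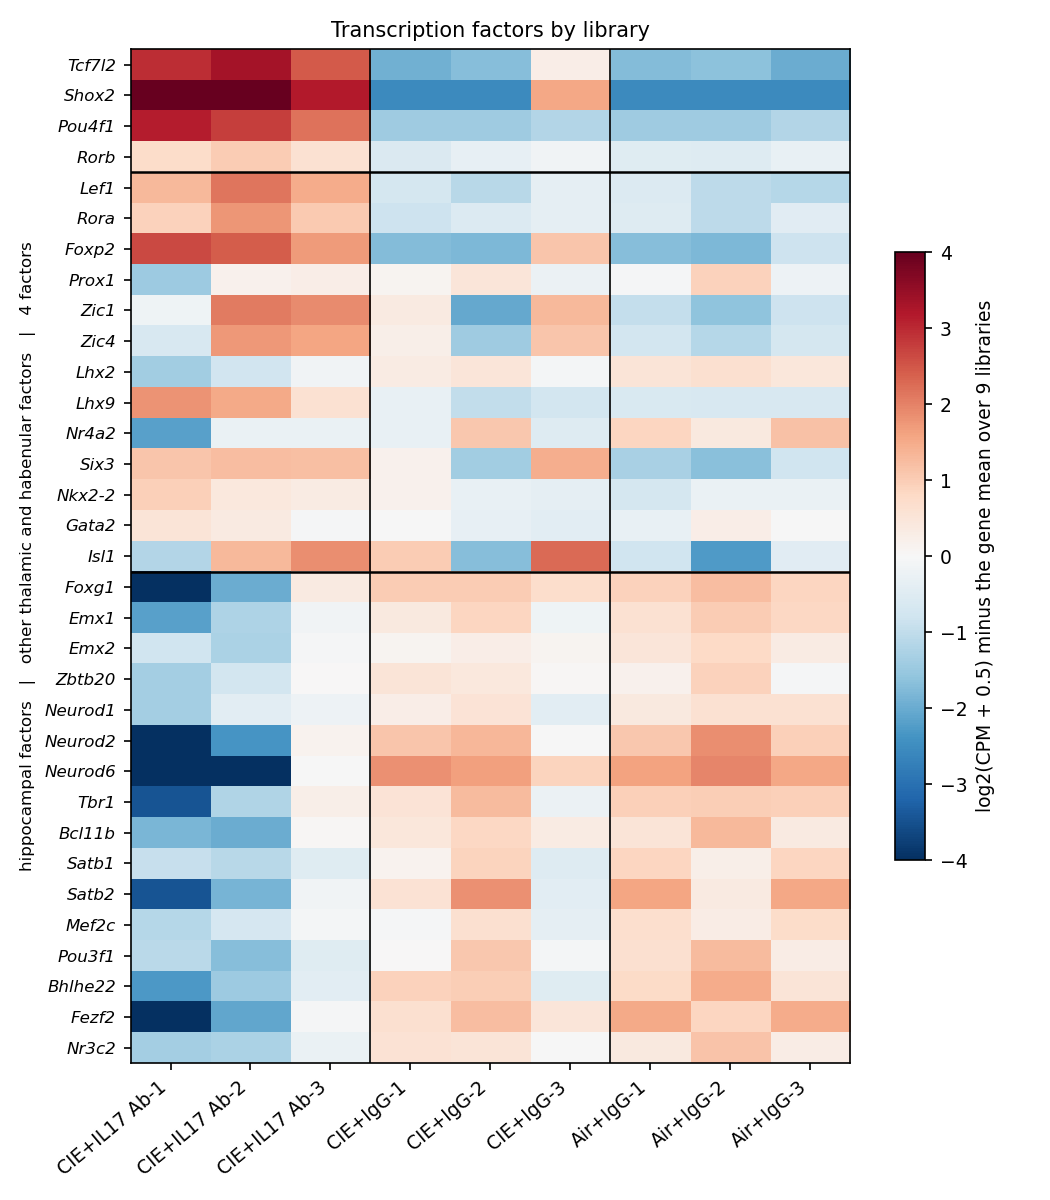
Each row is a transcription factor and each column a library, and colour gives log2(CPM + 0.5) minus the mean of the gene over the 9 libraries, with colours limited at 4 in either direction. The rows are the 4 factors at the top, 13 other thalamic and habenular factors in the middle and 16 hippocampal factors at the bottom, and the 4 factors are red in CIE+IL17 Ab while all 16 hippocampal factors have a lower fitted mean there.

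Habenular genes that are no transcription factors were mostly higher in CIE+IL17 Ab. Of 11, 7 rose in CIE+IL17 Ab over CIE+IgG and 8 over Air+IgG, none fell, and the median log2 fold change was 2.49 over CIE+IgG and 3.29 over Air+IgG. Over all genes tested, 1.78% were called higher over CIE+IgG and 6.83% over Air+IgG. The nicotinic receptor subunit Chrna3, which is abundant in the medial habenula, had 19.8 ± 2.58 CPM in CIE+IL17 Ab, 0.97 ± 0.29 in CIE+IgG and 0.67 ± 0.41 in Air+IgG (SD, n = 3 each). Its log2 fold change over CIE+IgG was 4.32 (SE 0.33), with an adjusted p of 0.00509 in edgeR's test. The habenular receptor Gpr151, the tachykinin precursor Tac2 and the nicotinic subunit Chrnb3 had log2 fold changes of 3.76, 3.39 and 4.91 over CIE+IgG. The summed level of the 11 was 238, 435 and 359 CPM in CIE+IL17 Ab 1 to 3, against 83.2 to 101 in CIE+IgG and 76.2 to 104 in Air+IgG. The count of 7 over CIE+IgG was 4 without Air+IgG 1, Air+IgG 3, CIE+IgG 2 or CIE+IL17 Ab 2, and 0 without CIE+IgG 1. Without CIE+IL17 Ab 1 and 2 together it was 1, with a median of 2.37. It was also 4 with the replicate number as a block, 3 with a strict filter on low counts, 1 in a fit of those groups alone and 0 in the libraries numbered 54 to 60. The count of 8 over Air+IgG was 4 with the strict filter, 2 without CIE+IL17 Ab 1 and 2 together, and 0 without Air+IgG 3 or in the libraries numbered 54 to 60.

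Thalamic genes of that kind were higher in CIE+IL17 Ab as well. Of 11, 9 rose over CIE+IgG and all 11 over Air+IgG, with median log2 fold changes of 2.62 over CIE+IgG and 2.82 over Air+IgG, beside the same shares called over all genes, 1.78% higher and 6.83% higher. The vesicular glutamate transporter Slc17a6, typical of thalamic and habenular excitatory neurons, had 346 ± 163 CPM in CIE+IL17 Ab, 42.2 ± 12.3 in CIE+IgG and 32.7 ± 12.1 in Air+IgG (SD, n = 3 each). Its log2 fold change over CIE+IgG was 3.04 (SE 0.45), with an adjusted p of 0.0242 in edgeR's test. The troponin Tnnt1, the G protein regulator Rgs16 and the peptide receptor Vipr2 had log2 fold changes of 3.99, 2.62 and 3.52 over CIE+IgG. The summed level of the 11 was 1096, 2131 and 1268 CPM in CIE+IL17 Ab 1 to 3. The count of 9 over CIE+IgG was 6 without Air+IgG 2, 2 without CIE+IL17 Ab 2 and 0 without Air+IgG 1, Air+IgG 3, CIE+IgG 1 or CIE+IgG 2. Without CIE+IL17 Ab 1 and 2 together it was 1, with a median of 2.08. It was 0 in a fit of those groups alone, with the replicate number as a block, or in the libraries numbered 54 to 60. The count of 11 over Air+IgG was 7 without CIE+IL17 Ab 2, 4 without Air+IgG 1 or Air+IgG 2, 2 without CIE+IL17 Ab 1 and 2 together, and 0 without Air+IgG 3 or in the libraries numbered 54 to 60.

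Hippocampal factors had lower fitted levels in CIE+IL17 Ab. All 16 had a fitted log2 fold change below 0 in CIE+IL17 Ab over CIE+IgG, with a median of -1.50. None passed edgeR's test in that comparison. Of the 16, 14 had an unadjusted p under 0.05 in edgeR, beside 3281 of all 14696 genes. DESeq2 called 5 and limma-voom 1. Over Air+IgG, 8 of the 16 fell, with a median of -1.82, beside 6.71% of all genes called lower. DESeq2 called 12 and limma-voom 13 of the 16 lower over Air+IgG. All 16 had an unadjusted p under 0.05 in edgeR there, beside 4703 of all 14696 genes. Without CIE+IL17 Ab 1 and 2 the medians were -0.62 over CIE+IgG and -0.98 over Air+IgG, and none was called. The 8 called over Air+IgG were 0 without any 1 of the 3 Air+IgG libraries or without CIE+IL17 Ab 2, 2 without CIE+IL17 Ab 1 or CIE+IgG 1, and 16 without CIE+IL17 Ab 3. They were 3 in a fit of those groups alone, and 0 with the replicate number as a block, in the libraries numbered 54 to 60 or without the Lars2-rich libraries CIE+IL17 Ab 1 and Air+IgG 2. Nr3c2, the mineralocorticoid receptor, had 121 ± 56.8 CPM in CIE+IL17 Ab, 291 ± 60.1 in CIE+IgG and 351 ± 119 in Air+IgG (SD, n = 3 each). Pou3f1, a POU factor of CA1 neurons, had 7.05 ± 3.11, 20.1 ± 10.0 and 25.5 ± 8.96 CPM in the same groups (SD, n = 3 each).

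Of 8 markers of CA1 pyramidal neurons, 4 fell in CIE+IL17 Ab over CIE+IgG, namely Ccn3, Fibcd1, Mpped1 and Spink8, and 5 fell over Air+IgG. Over all genes tested, 1.41% were called lower over CIE+IgG and 6.71% over Air+IgG. Ccn3, a secreted matricellular protein, had 5.92 ± 4.34 CPM in CIE+IL17 Ab, 65.8 ± 12.4 in CIE+IgG and 116 ± 51.1 in Air+IgG (SD, n = 3 each). The 4 calls were 2 without Air+IgG 2 or CIE+IL17 Ab 1, and 0 without Air+IgG 1, Air+IgG 3, CIE+IgG 1, CIE+IgG 2 or CIE+IL17 Ab 2. They were 1 without the Lars2-rich libraries, and 0 without CIE+IL17 Ab 1 and 2 together, in a fit of those groups alone, with the replicate number as a block or in the libraries numbered 54 to 60. The 5 over Air+IgG were 3 without the Lars2-rich libraries, with the block, or without Air+IgG 1, Air+IgG 2 or CIE+IL17 Ab 2. They were 8 without CIE+IL17 Ab 3, and 0 without Air+IgG 3, without CIE+IL17 Ab 1 and 2 together or in the libraries numbered 54 to 60.

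Other hippocampal and neighbouring regions gave mixed counts. Over all genes tested, edgeR called 1.78% higher and 1.41% lower over CIE+IgG, and 6.83% higher and 6.71% lower over Air+IgG. An unadjusted p under 0.05 was found for 3281 of 14696 genes over CIE+IgG and 4703 over Air+IgG. Of 9 markers of CA2 and CA3 neurons, 1 fell and 0 rose over CIE+IgG, with a median log2 fold change of -0.39. That gene was Grik4, a kainate receptor subunit, with 28.3 ± 5.99 CPM in CIE+IL17 Ab, 62.7 ± 17.7 in CIE+IgG and 54.7 ± 4.57 in Air+IgG (SD, n = 3 each; adjusted p 0.0373 over CIE+IgG, edgeR). The call was lost in 7 of the 9 fits that left out 1 library, and held without CIE+IgG 3 or CIE+IL17 Ab 3. At an unadjusted p under 0.05, 2 of the 9 were higher and 3 lower, and DESeq2 called 2 higher and 2 lower. Over Air+IgG 3 of the 9 rose (Pcp4, Amigo2 and Cacng5) and 2 fell (Nectin3 and Grik4), and all 5 calls were lost without any 1 of the 3 Air+IgG libraries. Of 8 cortical markers, edgeR called none over CIE+IgG, where 2 were higher and 3 lower at an unadjusted p under 0.05, DESeq2 called 0 higher and 2 lower, and limma-voom called none. Over Air+IgG 1 cortical marker rose (Rspo1) and 2 fell (Tle4 and Hs3st4). No dentate gyrus gene of 11 and no striatal gene of 10 was called by edgeR in either comparison with CIE+IL17 Ab. The dentate genes had a median log2 fold change of -0.94 over CIE+IgG, with 8 of 11 below 0, and of -1.48 over Air+IgG, with all 11 below 0. The striatal genes had a median of -0.44 over CIE+IgG, with 9 of 10 below 0, and of 1.301 over Air+IgG, with all 10 above 0. Of the 11 dentate genes, 1 was lower over CIE+IgG and 4 over Air+IgG at an unadjusted p under 0.05, and DESeq2 called 0 and 3 of them and limma-voom 0 and 1. Of the 10 striatal genes, 0 over CIE+IgG and 1 over Air+IgG had an unadjusted p under 0.05, and DESeq2 called 0 and 1 of them and limma-voom none. Whether less hippocampal or more neighbouring tissue accounts for the levels of the 4 factors was not tested.

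**Figure D4:**
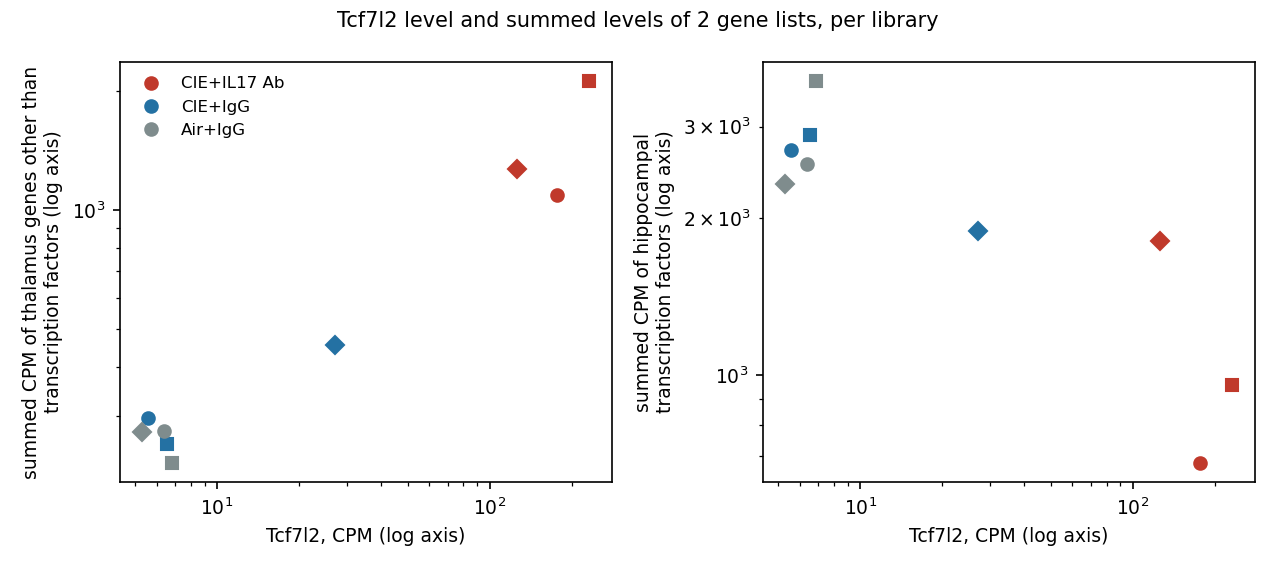
Tcf7l2 in CPM (horizontal, log axis) against the summed CPM (vertical, log axis) of 11 thalamus genes in the left panel and of 16 hippocampal transcription factors in the right panel, with a point per library, colour for the group, and circle, square and diamond for replicates 1, 2 and 3. The CIE+IL17 Ab libraries lie at the right, with 1096 to 2131 CPM of thalamus genes and 676 to 1812 CPM of hippocampal factors, and CIE+IgG 3 lies between them and the other 5 on the Tcf7l2 axis.

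Genes of glia, vessels and choroid plexus are given here beside the 4 factors. The summed level of 9 genes of mature oligodendrocytes was 6052 to 7390 CPM in CIE+IL17 Ab, 4546 to 7250 in CIE+IgG and 3980 to 4537 in Air+IgG. That of 7 genes of newly differentiating oligodendrocytes, which are also known to express Tcf7l2, was 390 to 439 CPM in CIE+IL17 Ab, 338 to 405 in CIE+IgG and 318 to 340 in Air+IgG. That of 5 brain endothelial genes was 210 to 235 CPM in CIE+IL17 Ab, 180 to 203 in CIE+IgG and 167 to 212 in Air+IgG. None of the genes of these 3 lists was called in CIE+IL17 Ab over CIE+IgG by edgeR, DESeq2 or limma-voom. At an unadjusted p under 0.05 in edgeR, 0 of the mature, 3 of the newly differentiating and 1 of the endothelial genes differed. Over all genes, edgeR called 3.18% in that comparison, and 3281 of 14696 had such an unadjusted p. Over Air+IgG edgeR called 5 mature and 1 newly differentiating oligodendrocyte genes higher, beside 6.83% of all genes. Choroid plexus genes summed to 72.5, 7370 and 5973 CPM in CIE+IL17 Ab 1 to 3, against 5161, 3130 and 5852 CPM in CIE+IgG 1 to 3 and 3904, 528 and 2473 CPM in Air+IgG 1 to 3.

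Of 5 astrocyte genes, 1 rose and 0 fell in CIE+IL17 Ab over CIE+IgG. Over all genes tested, 1.78% were called higher and 1.41% lower there. Gja1, the gap junction protein connexin of astrocytes, had 202, 160 and 178 CPM in CIE+IL17 Ab 1 to 3, against 139, 125 and 128 CPM in CIE+IgG 1 to 3 and 146, 154 and 155 CPM in Air+IgG 1 to 3. The log2 fold change of Gja1 was 0.46 (SE 0.10) over CIE+IgG, with an adjusted p of 0.0460 in edgeR's test, and the call was lost in 8 of the 9 fits that left out 1 library, all but that without CIE+IL17 Ab 3. DESeq2 called 2 of the 5 higher and 2 lower. Over Air+IgG edgeR and limma-voom called none and DESeq2 called 1 higher. At an unadjusted p under 0.05 in edgeR, 2 were higher and 2 lower, beside 4703 of all 14696 genes in either direction. Of 5 microglia genes, 1 fell and 0 rose over CIE+IgG, beside 1.41% lower and 1.78% higher over all genes. P2ry12, a purine receptor of microglia, had 29.0, 26.9 and 26.5 CPM in CIE+IL17 Ab 1 to 3, against 41.7, 38.7 and 36.3 CPM in CIE+IgG 1 to 3 and 35.4, 43.97 and 39.97 CPM in Air+IgG 1 to 3. The log2 fold change of P2ry12 was -0.50 (SE 0.10) over CIE+IgG, with an adjusted p of 0.0436 in edgeR's test, and the call was lost in 7 of the 9 fits that left out 1 library, and held without CIE+IgG 3 or CIE+IL17 Ab 3. Over Air+IgG P2ry12 and Tmem119 fell, beside 6.71% of all genes called lower. Neither was called without Air+IgG 2, Air+IgG 3 or CIE+IL17 Ab 2. The part of glia in the levels of the 4 factors was not tested.

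Wnt signalling genes were examined because Tcf7l2 and Lef1 act in that pathway. Of 7 feedback targets, 1 rose in CIE+IL17 Ab over CIE+IgG, beside 1.78% of all genes called higher. DESeq2 called 3 of the 7 and limma-voom 1. Axin2, a widely used target that limits the pathway, had 64.2 ± 10.4 CPM in CIE+IL17 Ab, 39.5 ± 0.87 in CIE+IgG and 39.2 ± 6.30 in Air+IgG (SD, n = 3 each). Its log2 fold change was 0.70 (SE 0.14) over CIE+IgG and 0.72 (SE 0.14) over Air+IgG, with adjusted p of 0.0407 and 0.0178 in edgeR's quasi-likelihood test. The first call was lost without Air+IgG 1, Air+IgG 3, CIE+IgG 1, CIE+IgG 2 or CIE+IL17 Ab 2, and the second without Air+IgG 1, Air+IgG 3 or CIE+IL17 Ab 2. Over Air+IgG, 2 of the 7 rose, beside 6.83% of all genes. Of 12 genes whose proteins join TCF/LEF factors or control beta-catenin, none was called over CIE+IgG by edgeR or limma-voom and 1 by DESeq2. Of these, 2 had an unadjusted p under 0.05 in edgeR, beside 3281 of all 14696 genes. The median log2 fold change of the 12 was 0.02. Over Air+IgG edgeR called 1 of the 12 lower, beside 6.71% of all genes. Tle4, a corepressor, was lower over Air+IgG, with 65.5 ± 8.21 CPM in CIE+IL17 Ab, 84.5 ± 7.42 in CIE+IgG and 86.7 ± 1.58 in Air+IgG (SD, n = 3 each; adjusted p 0.0371, edgeR). That call was lost without any 1 of the 3 Air+IgG libraries, CIE+IL17 Ab 1 or CIE+IL17 Ab 2. Pygo1, a nuclear partner of beta-catenin, had 75.3, 105 and 118 CPM in the same groups.

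The genes whose pattern was most like that of each factor were found by Pearson's correlation of log2 CPM over the 9 libraries, given as a description. For Tcf7l2 they were Hcn4 (r = 0.985), Arhgef40, Cldn12, Trhr2 and Dbndd1 (0.981). Hcn4, a pacemaker channel, had 16.1 ± 3.79 CPM in CIE+IL17 Ab, 1.90 ± 1.21 in CIE+IgG and 1.503 ± 0.32 in Air+IgG (SD, n = 3 each). For Shox2 they were Amotl2 (r = 0.994), Trhr2, Foxp2, Zmat1 and Gpr153 (0.979). Trhr2, a receptor of thyrotropin-releasing hormone, had 2.94, 0.549 and 0.18 CPM on average in the same groups. For Pou4f1 they were Itfg2 (r = 0.992), Lhfpl5, Cables1, Trim67 and Cdyl (0.982). For Rorb they were Slc25a37 (r = 0.992), Agbl5, Itfg2, Rora and Lhfp (0.984). Among the 4 factors themselves, r was 0.910 for Shox2 with Pou4f1 and 0.983 for Tcf7l2 with Shox2, the lowest and highest of the 6 pairs. All these values rest on the same 9 libraries and on the gap between CIE+IL17 Ab and the rest.

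The labels carry a second number, from 37 to 39 in 1 library of each group and from 54 to 60 in the other 6, whose meaning is not given. Within the 6 libraries numbered 54 to 60, the log2 fold change of CIE+IL17 Ab over CIE+IgG was 4.63 for Tcf7l2 and 1.12 for Rorb, and the Shox2 ratio was at least 210. Over Air+IgG the log2 fold changes there were 4.51 for Tcf7l2 and 1.18 for Rorb. The libraries numbered 37 to 39 hold 1 sample per group, with 231 CPM of Tcf7l2 in CIE+IL17 Ab 2, 27.0 in CIE+IgG 3 and 5.30 in Air+IgG 3.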

How the data were processed

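Polyadenylated RNA of 9 mouse hippocampus libraries was analysed. The authors deposited expected counts per gene, made without scaling between libraries. Per the submitters' processing notes, the tools were STAR 2.5.1a and RSEM 1.3.0 on GRCm38. The sources used here give neither annotation release nor strand setting. Expected counts divide reads among genes that share sequence, and 27.1% of values had decimals. Library totals were 7372658 to 11894628 counts, which limits genes such as Pou4f1 to few counts.

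Counts were rounded and genes kept with filterByExpr (minimum count 10, by group), leaving 14696. The test was edgeR 4.0.16 in R 4.3.3 (TMM, glmQLFit with robust=TRUE, quasi-likelihood F-test), on all 9 libraries leaving 6 residual degrees of freedom. Benjamini-Hochberg adjustment ran over all genes tested in a comparison, and genes under 0.05 were called. Standard errors are the log2 fold change divided by the square root of F. The fit was also run on simulated counts, in which libraries of a group differed by random spread alone, and the outcome is not given here. CPM are TMM-scaled and symbols come from GENCODE M21, which matched 14628 identifiers. Ratios of counts carry 95% exact binomial intervals, with a floor of 3 counts over a group at 0.

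The 4 members and all lists were chosen with earlier results of these data known, so calls in lists are no independent support. Named genes are the 4 members, the 5 genes most like each (log2 CPM, prior count 2), their family members, the other thalamic and habenular factors called in any comparison and the 3 most abundant of those not called. Of every other list, they are up to 4 called genes with the smallest p in CIE+IL17 Ab over CIE+IgG, or the 2 with the smallest p. A family member is not reported here. Of the oligodendrocyte, vascular, dentate, striatal, cortical and choroid plexus lists, counts, medians or sums are printed. Libraries are given as separate samples, and p-values measure only the spread between them. No pair of libraries agreed within sampling noise (lowest chi-square per degree of freedom 3.93). Alternatives were DESeq2 1.42.0 and its size factors, limma-voom (limma 3.58.1), no or a strict filter (CPM above 1), 2-group fits, blocks, the libraries numbered 54 to 60 and leaving out libraries.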

Additional observations from a re-analysis of the deposited data

How the results depend on the processing

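The number of genes called in CIE+IL17 Ab over CIE+IgG (468) was 1481 with DESeq2, 776 with the label number as a block, 1 with a fit of those groups alone, 1 in the libraries numbered 54 to 60, 3 without both libraries low in hippocampal factors, and 0 to 1313 leaving out 1 library each. The number over Air+IgG (1990) was 1192 with a 2-group fit, 2 in libraries 54 to 60, 1067 without the 2 libraries rich in Lars2, 14 without both libraries low in hippocampal factors, and 0 to 2305 leaving out 1 library each. No gene was called in CIE+IgG over Air+IgG except 6 with DESeq2. The 3 other thalamic and habenular factors called over CIE+IgG were 5 with DESeq2, 0 with a 2-group fit, in libraries 54 to 60 or without both low libraries, and 0 to 4 leaving out 1 library. The 7 called over Air+IgG were 0 in libraries 54 to 60 or without both low libraries, 3 without the Lars2-rich libraries, and 0 to 7 leaving out 1 library. The cause was not tested.

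Same-numbered replicates did not deviate together (correlations from -0.27 to 0.249, over 0.1 in 2 of 9 pairs), so the numbers were not taken as pairing. With the replicate number as a block, 14 genes were called over CIE+IgG and 571 over Air+IgG, and 0 and 4 of the other thalamic and habenular factors.

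The log2 fold change of Tcf7l2 over Air+IgG (4.85) was 4.51 in libraries 54 to 60 and 4.35 without both low libraries, and over CIE+IgG (3.74) it ranged from 3.39 to 4.87 leaving out 1 library. In CIE+IgG over Air+IgG it turned to -0.12 in libraries 54 to 60, and ranged from -0.020 to 1.47 leaving out 1 library, as that of Rorb did from -0.0215 to 0.196. Rorb over Air+IgG was 1.05 without both low libraries (1.23 with them). The Shox2 ratio over CIE+IgG was at least 210 in libraries 54 to 60, 8.63 without both low libraries and 9.05 to 242 leaving out 1 library. Its bound over Air+IgG was 196, 238 and 226 to 430 under the same settings. Among named genes, Tcf7l1 over Air+IgG turned to -0.0515 in libraries 54 to 60. Prox1 over CIE+IgG (-0.31) turned to 0.0664 without the Lars2-rich libraries and to 0.101 without both low libraries, and ranged from -0.569 to 0.0661 (without CIE+IL17 Ab 1) leaving out 1 library. Over Air+IgG it turned to 0.34 without the Lars2-rich libraries. All calls of named genes over CIE+IgG were lost without CIE+IgG 1, and all over Air+IgG without Air+IgG 3, where no gene of the table was called. The alternatives that leave out both low libraries or the Lars2-rich ones were chosen after seeing the data.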
